A study of Homo sapiens with 6 samples.

Results

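TIPRL and 9 genes of the type 2A protein phosphatases were read from RNA-seq libraries of cells in which the methyltransferase gene N6AMT1 had been knocked down. The 10 genes were chosen by name from a table of 62438 genes, as TIPRL, which the study named, the phosphatases that its protein binds, and their assembly factors. Each of the 10 matched 1 Ensembl identifier, and all 10 passed the filter on low counts that left 17320 genes to test. The label of the cells is MDA-MB-453, a breast cancer line of human origin. The 2 groups, of 3 libraries each, were transfected for 48 h with 10 nM siRNA, which was directed at N6AMT1 in si-N6AMT1 and scrambled in si-CN. Both groups received the same lipid reagent, and the knockdown was transient. Replicates are described only as triplicate cells, so p-values measure the spread between these libraries, which may be technical. The study named TIPRL as a negative regulator of the cell cycle that is lowered after N6AMT1 knockdown. For the genes it named, it also reports decreases by qRT-PCR in cultured and xenograft cells. In breast tumours it reports a positive correlation of N6AMT1 and TIPRL mRNA. None of that evidence was analysed here, and the comparison shows how TIPRL and its phosphatase partners stood in the study's RNA-seq libraries.

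Type 2A phosphatases remove phosphate from serine and threonine and comprise PP2A, PP4 and PP6. In PP2A a catalytic C subunit (PPP2CA or PPP2CB) sits on a scaffold A subunit (PPP2R1A or PPP2R1B), and a variable B subunit directs the enzyme to its substrates. PP4 and PP6 are built around PPP4C and PPP6C with regulatory subunits of their own. Free catalytic subunits are bound by TIPRL and by IGBP1 (also called alpha4), PTPA helps to activate them, and LCMT1 methylates the last leucine of the catalytic subunit, a mark that the esterase PPME1 removes. PP2A opposes many mitotic and growth kinases, and loss of its subunits is known from breast and other tumours.

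Of the 10 genes, TIPRL, PPP2CA and PPP2R1B were lower and PPP4C was higher in si-N6AMT1 libraries, and the other 6 were not called. A gene is called here when its FDR, the Benjamini-Hochberg adjusted p of edgeR's quasi-likelihood test over all genes tested, is under 0.05. The 3 genes called lower stand beside 11.5% of all genes tested, and the 1 gene called higher beside 9.78%. The count of higher genes is near the share among all genes, and the count of lower genes includes TIPRL, which the study chose on these libraries. All changes were small, with log2 fold changes from -0.14 for PPP2R1B to 0.16 for LCMT1, a median of -0.05 and 7 of 10 below 0, beside a median of 0.0039 over all genes. In bulk RNA, fewer cells that express a gene and less RNA of it per cell cannot be told apart. In 5 of the 10 genes every si-N6AMT1 library was lower than every si-CN library, beside 18.0% of all genes, and in 2 every one was higher, beside 16.8%.

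**Figure D1:**
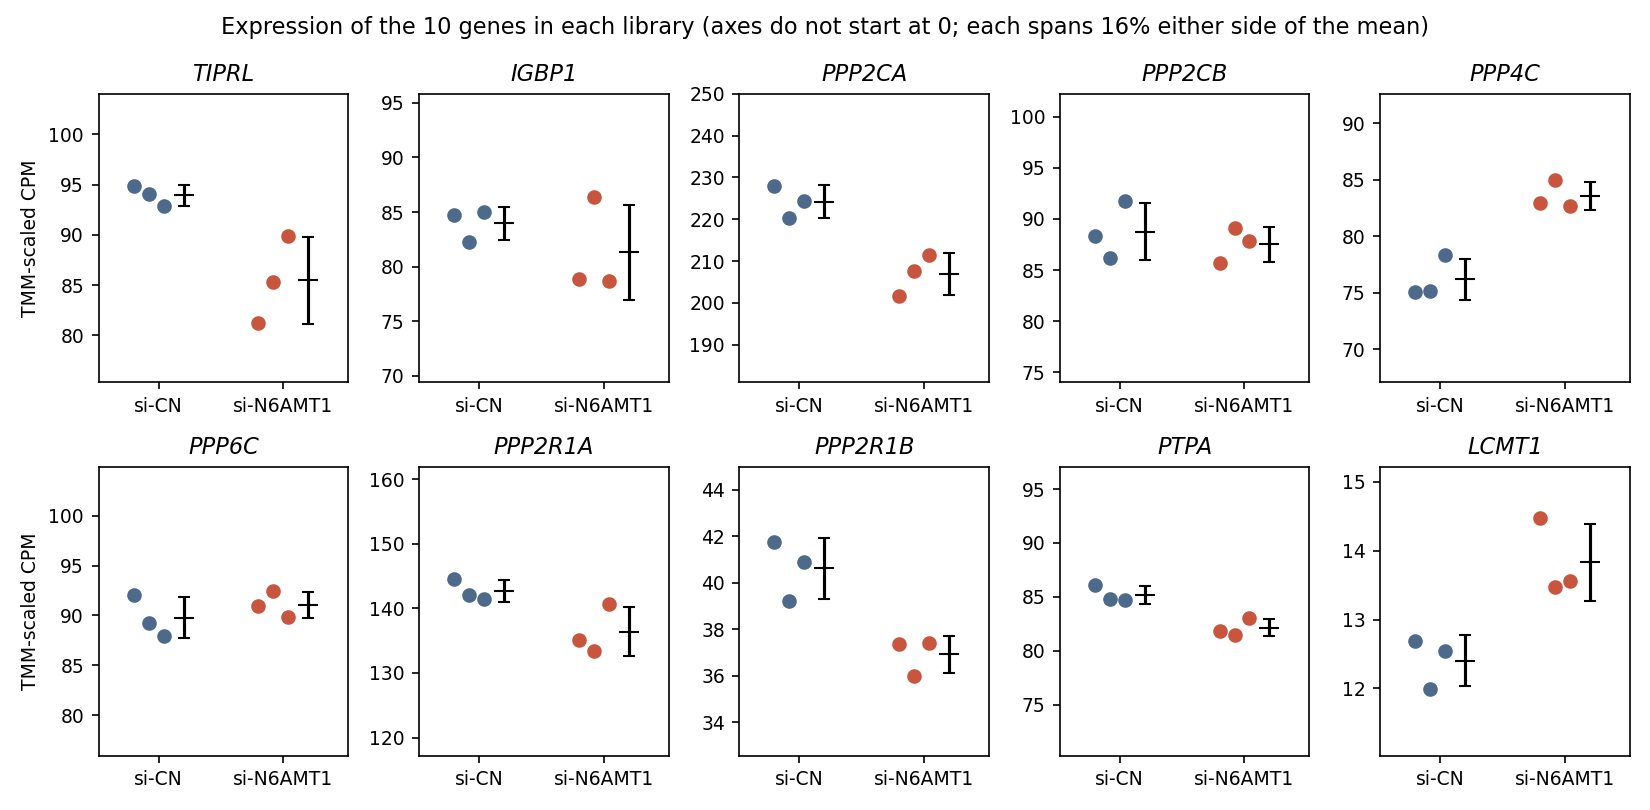
Normalized expression of the 10 genes in CPM (counts relative to the TMM-scaled library total) on the y axis, with 1 point per library (blue, si-CN; red, si-N6AMT1) and the mean with its SD (n = 3) in black. The axes do not start at 0, and each spans 16% either side of the gene's mean. The groups do not overlap in TIPRL, PPP2CA, PPP2R1A, PPP2R1B and PTPA, where si-N6AMT1 is lower, nor in PPP4C and LCMT1, where it is higher.

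The 3 genes called lower are also the 3 of the 10 whose 3′ UTR holds TTCACAT or TCACATA, 7-base sequences that earlier work on these libraries had picked because they went with lower expression. They were thus chosen on the same fold changes, and a match is given as a description. They are shown because holding such a site separates the 3 lower genes from the other 7 in the reported setting. That split does not hold with a correction for GC content, where TIPRL and PPP2R1B were not called. PPP2R1A and PTPA, which hold no site, were called lower there. The split also fails in other settings. PPP2R1B was not called under DESeq2 or without si-N6AMT1 replicate 2, si-CN replicate 1 or si-CN replicate 3. Without si-N6AMT1 replicate 3, PPP2R1A was called lower. The capitals mark the 7 bases, or the 8 bases where both sequences overlap, and each stretch is read 5′ to 3′ on the strand of the mRNA in GRCh37.
TIPRL, chr1:168169457-168169485, plus strand: tactgtctgtcTTCACATtcatattccag
PPP2CA, chr5:133533330-133533358, minus strand: aaaaacttgttTTCACATggaccaaaaga
PPP2CA, chr5:133532582-133532611, minus strand: tttatttgtatTTCACATAttacaatttgt
PPP2R1B, chr11:111610923-111610952, minus strand: aacaactatttTTCACATAatcaaactcac
The TIPRL site starts at base 184 of a 3′ UTR of 2063 bases, those of PPP2CA at bases 116 and 863 of 3440, and that of PPP2R1B at base 1379 of 3719, in the reference transcript of each gene and on the mRNA strand only. PPP4C and the 6 genes not called hold neither sequence in their 3′ UTRs. A site was present in 22.5% of 13081 tested protein-coding genes with a 3′ UTR of at least 50 bases. Since longer UTRs hold more sites, the share was also taken among UTRs of similar length, from 0.8 to 1.25 times that of the gene. It was 25.8% for TIPRL, 41.2% for PPP2CA and 43.2% for PPP2R1B. Among the genes that hold none, it was 38.9% for PPP6C, 42.4% for PPP2R1A and 17.6% for PTPA. In the shorter UTRs of PPP2CB and IGBP1 it was 7.0% and 3.9%, and it was only 2.6% for both PPP4C and LCMT1.

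Library totals ran from 19739247 to 21289740 counts, and no library of a group stood apart from the others. In chi-square tests of pairs of libraries, the statistic per degree of freedom was 1.37 to 1.77 for pairs within a group and 6.89 to 7.80 for pairs from different groups. N6AMT1, the targeted gene, had 60 to 72 counts in si-N6AMT1 and 135 to 141 in si-CN libraries with a log2 fold change of -1.10 (SE 0.119, edgeR FDR = 3.65e-07). The labelled cell line was compared with marker genes. The luminal markers SPDEF and KRT19 had 20 and 61 counts over all 6 libraries. Over 1 TPM, a unit of abundance per transcript length, were 5 of 8 luminal markers. These 5 were KRT8 (743 to 815 TPM), KRT18 (714 to 764), ERBB2 (25.2 to 26.7), FOXA1 (4.8 to 5.7) and GATA3 (1.7 to 2.6). All 6 basal or mesenchymal markers were over 1 TPM, and their summed level ran from 6703 to 6871 TPM, with KRT17 between 4048 and 4203 TPM. The low SPDEF and KRT19 and the high basal and mesenchymal markers go against the label, since MDA-MB-453 is known as a luminal line, so the identity of the cells behind every value here is in doubt and the name is used only as a label. The luminal markers summed to 1602 to 1611 TPM in si-N6AMT1 and 1496 to 1522 TPM in si-CN libraries. Of these, KRT8 and KRT18 were called higher (edgeR FDR = 0.000126 and 0.0150), while ERBB2, FOXA1, GATA3 and KRT19 were not called. The basal or mesenchymal markers summed to 6724 to 6871 TPM in si-N6AMT1 and 6703 to 6774 TPM in si-CN libraries. Some of them were also called higher, while KRT17, most of their sum, was not (edgeR FDR = 0.612). The part of these markers in the results was not tested.

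TIPRL (ENSG00000143155, GRCh37 chr1:168148200-168171347, plus strand, 7 exons), a TOR pathway regulator that binds free catalytic subunits, was lower after knockdown. Its normalized expression was 81.2, 85.3 and 89.9 CPM in the 3 si-N6AMT1 libraries and 94.8, 94.1 and 92.8 CPM in the 3 si-CN libraries. Every si-N6AMT1 library was below every si-CN library, the si-CN values lay close together, and si-N6AMT1 replicate 3 came nearest to them. TIPRL fell by 8.95%, a log2 fold change of -0.14 (standard error, SE, 0.0339, 95% interval -0.21 to -0.06, FDR = 0.00548 from edgeR). When single libraries were omitted, the change ran from -0.17 without si-N6AMT1 replicate 3 to -0.10 without si-N6AMT1 replicate 1, and the gene was called each time. With a correction for GC content, added after the data had been seen, the log2 fold change was -0.09 and TIPRL was no longer called (FDR = 0.0748). TIPRL was also not called in a planned setting, this correction together with a replicate block (log2 fold change -0.09, edgeR FDR = 0.106). Its reference transcript has a GC content of 36.6%.

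IGBP1 (ENSG00000089289, chrX:69353297-69386174, plus strand), which shields catalytic subunits from degradation, had 78.9, 86.3 and 78.7 CPM in si-N6AMT1 and 84.7, 82.2 and 85.0 CPM in si-CN libraries. The groups overlapped, since si-N6AMT1 replicate 2 was the highest of the 6 libraries. The log2 fold change was -0.05 (95% interval -0.12 to 0.03, FDR = 0.411), an interval that still holds part of the range found for TIPRL. The value was -0.09 without si-N6AMT1 replicate 2, and -0.02 without si-N6AMT1 replicate 1 or replicate 3, and it was not called in any of these.

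Among the catalytic subunits, PPP2CA was lower, PPP4C was higher, and PPP2CB and PPP6C were not called. PPP2CA (ENSG00000113575, chr5:133529726-133561764, minus strand), the more abundant PP2A catalytic gene by counts, had 201.5, 207.7 and 211.5 CPM in si-N6AMT1 and 227.9, 220.2 and 224.4 CPM in si-CN libraries. No si-N6AMT1 library reached the lowest si-CN library. PPP2CA fell by 7.69%, a log2 fold change of -0.12 (SE 0.0248, 95% interval -0.17 to -0.06, FDR = 0.00148), and it was called under all 13 alternative settings, with a largest FDR of 0.0490.

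PPP2CB (ENSG00000104695, chr8:30631973-30671830, minus strand) encodes the other PP2A catalytic subunit, which is nearly identical in protein sequence. It had 85.7, 89.1 and 87.8 CPM in si-N6AMT1 and 88.4, 86.2 and 91.8 CPM in si-CN libraries, and the groups overlapped. The log2 fold change was -0.02 (95% interval -0.09 to 0.05, FDR = 0.713), and its sign turned without si-CN replicate 3, to 0.01. Reads that fit both genes are divided between them by estimation, so their separate counts are uncertain where their sequences match.

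PPP4C (ENSG00000149923, chr16:30087299-30096697, plus strand), the PP4 catalytic subunit, had 83.0, 85.0 and 82.7 CPM in si-N6AMT1 and 75.1, 75.2 and 78.3 CPM in si-CN libraries. All si-N6AMT1 libraries were above all si-CN libraries. PPP4C rose by 9.60%, a log2 fold change of 0.13 (SE 0.0316, 95% interval 0.07 to 0.20, FDR = 0.00368). The call was lost under DESeq2 (adjusted p = 0.0537), while its log2 fold change there was also 0.13. PPP4C has a GC content of 57.8%, and with the GC content correction alone its log2 fold change was 0.10 and it was still called (FDR = 0.0301), but with the replicate block added to this correction the call was lost (FDR = 0.0544).

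PPP6C (ENSG00000119414, chr9:127908852-127952218, minus strand), the PP6 catalytic subunit, had 90.9, 92.4 and 89.8 CPM in si-N6AMT1 and 92.0, 89.3 and 88.0 CPM in si-CN libraries. The groups overlapped, and the log2 fold change was 0.02 (95% interval -0.04 to 0.08, FDR = 0.690). Its GC content of 36.5% is close to that of TIPRL, and with the GC content correction its log2 fold change was 0.07 (FDR = 0.0979). With 1 library left out the value ran from 0.0074 without si-CN replicate 3 to 0.04 without si-CN replicate 1, and it was 0.01 without si-N6AMT1 replicate 2.

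Of the scaffold genes, PPP2R1B was called and PPP2R1A was not. PPP2R1A (ENSG00000105568, chr19:52674189-52732771, plus strand), the main scaffold and a gene mutated in several cancers, had 135.1, 133.4 and 140.7 CPM in si-N6AMT1 and 144.6, 142.0 and 141.4 CPM in si-CN libraries. The groups did not overlap, but si-N6AMT1 replicate 3 was within 1 CPM of si-CN replicate 3. It had a log2 fold change of -0.06 (SE 0.0269, FDR = 0.0975). It was called in 2 of 13 alternatives, without si-N6AMT1 replicate 3 (FDR = 0.0471) and with the GC content correction (FDR = 0.0402).

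PPP2R1B (ENSG00000137713, chr11:111597632-111637113, minus strand), the second scaffold, had 37.4, 36.0 and 37.4 CPM in si-N6AMT1 and 41.8, 39.2 and 40.9 CPM in si-CN libraries, with no overlap. PPP2R1B fell by 9.10%, a log2 fold change of -0.14 (SE 0.0426, 95% interval -0.23 to -0.05, FDR = 0.0230). This was the least stable of the 4 calls. It held in 7 of 13 alternatives and was lost under DESeq2 (adjusted p = 0.186), with the GC content correction (FDR = 0.0735) and without si-N6AMT1 replicate 2 (FDR = 0.101), si-CN replicate 1 (FDR = 0.0928) or si-CN replicate 3 (FDR = 0.0755). SIK2 overlaps PPP2R1B on the other strand with 69.4% as many counts, and since the strand setting of the quantification is not given in the sources used here, reads from the overlap cannot be assigned with certainty.

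Neither activating enzyme was called. PTPA (ENSG00000119383, chr9:131873229-131911225, plus strand) had 81.9, 81.5 and 83.0 CPM in si-N6AMT1 and 86.1, 84.8 and 84.7 CPM in si-CN libraries. Each si-N6AMT1 library was below each si-CN library, yet the log2 fold change of -0.05 had an interval that held 0 (95% interval -0.11 to 0.01, FDR = 0.238). With the GC content correction PTPA, at a GC content of 59.2%, had a log2 fold change of -0.09 and was called (FDR = 0.0285).

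LCMT1 (ENSG00000205629, chr16:25123052-25189552, plus strand), the leucine carboxyl methyltransferase, had 14.5, 13.5 and 13.6 CPM in si-N6AMT1 and 12.7, 11.99 and 12.5 CPM in si-CN libraries. All si-N6AMT1 libraries were above all si-CN libraries, and the log2 fold change of 0.16 was the highest of the 10 genes. With 236 to 287 counts per library it also had the widest interval (0.01 to 0.31) and was not called (FDR = 0.136). The antisense RNA LCMT1-AS2 overlaps LCMT1 with 3.71% as many counts. PPME1, the esterase that reverses the LCMT1 mark, had 131.7 ± 1.18 CPM in si-N6AMT1 and 133.8 ± 2.11 CPM in si-CN libraries (SD, n = 3, log2 fold change -0.02, FDR = 0.607).

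**Figure D2:**
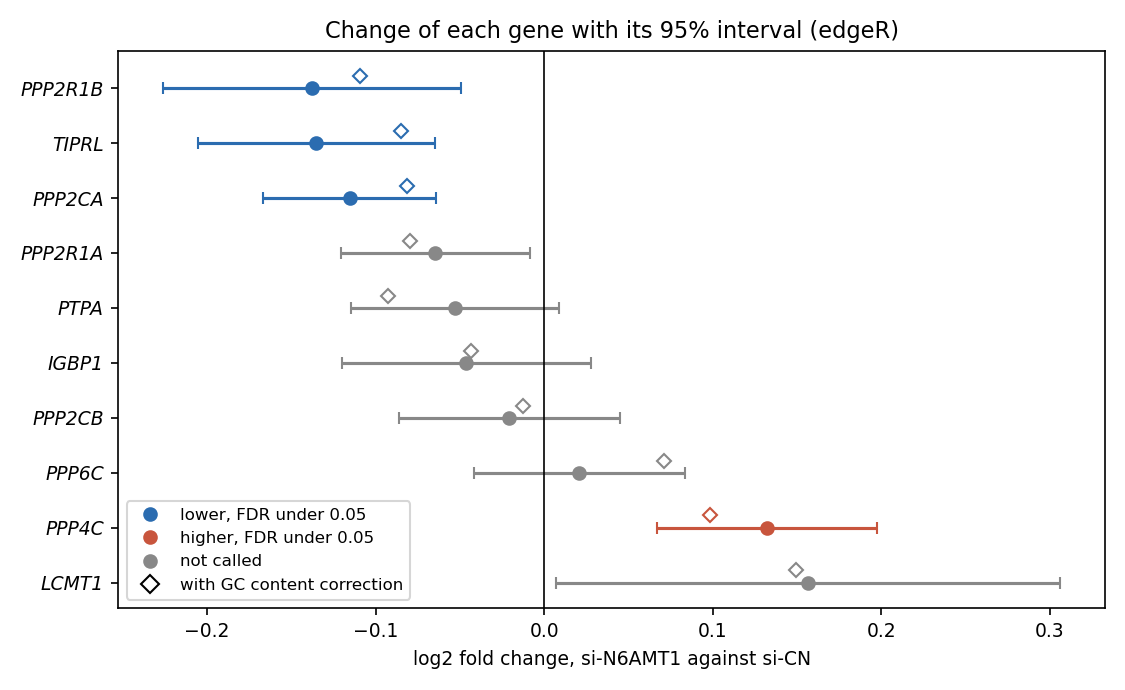
Log2 fold change of each gene between si-N6AMT1 and si-CN on the x axis, with circles for the edgeR estimate, bars for its 95% interval, colours for the call (blue, lower; red, higher; grey, not called) and open diamonds for the estimate with GC content correction. The intervals of PPP2R1B, TIPRL and PPP2CA lie below 0 and that of PPP4C above 0. Those of PPP2R1A (-0.12 to -0.0086) and LCMT1 (0.01 to 0.31) also leave out 0, though neither gene was called. The correction moves TIPRL from -0.14 to -0.09 and PTPA from -0.05 to -0.09.

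**Figure D3:**
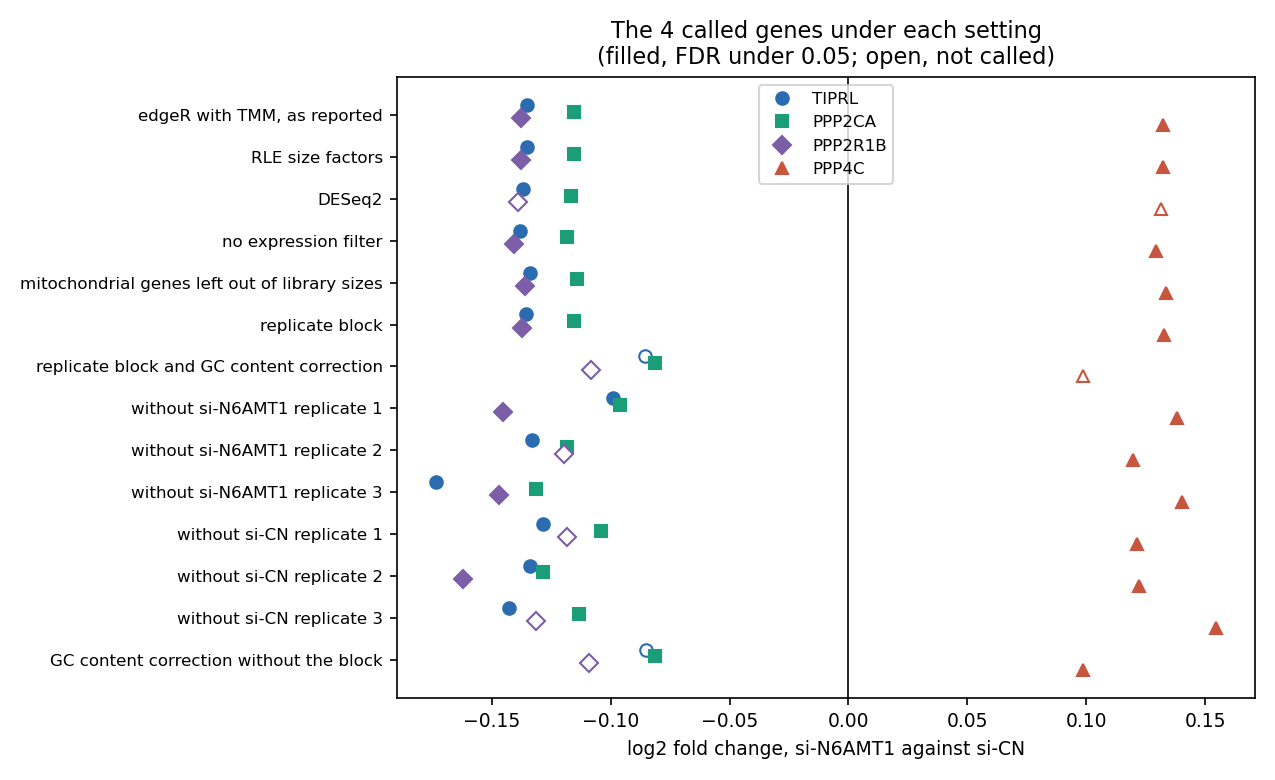
Log2 fold change (x axis) of TIPRL, PPP2CA, PPP2R1B and PPP4C under the reported setting and 13 alternatives (y axis), filled where the FDR is under 0.05. Each gene keeps its sign in every setting, and only PPP2CA is filled in all of them.

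Levels between genes were compared per length, as TPM estimated with the length of each reference transcript. In si-CN libraries the order was PPP4C with 120.9 ± 3.94 TPM, IGBP1 with 111.0 ± 1.97, PPP2CA with 108.8 ± 1.15, PPP2CB with 101.5 ± 3.66, PTPA with 71.8 ± 0.175, TIPRL with 69.7 ± 0.486, PPP2R1A with 59.3 ± 0.0938, PPP6C with 48.7 ± 0.575, LCMT1 with 20.4 ± 0.501 and PPP2R1B with 16.3 ± 0.404 TPM (SD, n = 3). The libraries of IGBP1 and PPP2CA overlapped in this order, and those of the other neighbours did not. The order depends on the transcript length used. With the median length of a gene's protein-coding transcripts, added after the data had been seen, PPP2CB came first with 176.1 TPM, while PPP4C had 80.3 TPM, TIPRL 69.1 TPM and IGBP1 65.0 TPM.

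Shares within sets of 2 or 4 related genes were then compared. Unlike the sums in TPM given beside them, these shares do not depend on the scaling between libraries. The 4 catalytic genes together had 381.6 ± 1.94 TPM in si-N6AMT1 and 379.9 ± 7.71 TPM in si-CN libraries, a difference within the spread (two-sided exact permutation test, p = 0.8). Within that total the share of PPP4C was 34.7% ± 0.365 in si-N6AMT1 and 31.8% ± 0.475 in si-CN libraries, and that of PPP6C was 12.9% ± 0.182 and 12.8% ± 0.396 (SD, n = 3). PPP2CB made up 49.9% ± 0.419 of the 2 PP2A catalytic genes in si-N6AMT1 and 48.2% ± 0.707 in si-CN libraries. LCMT1 made up 16.2% ± 0.660 and 14.6% ± 0.232 of LCMT1 and PPME1 together. The total and the shares depend on the transcript length used. With the median transcript length, the mean si-CN share was 17.5% for PPP4C, 6.49% for PPP6C, 50.6% for PPP2CB and 27.4% for LCMT1.

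The groups did not overlap in the shares of PPP4C, PPP2CB and LCMT1, which were 2.84, 1.66 and 1.63 percentage points higher in si-N6AMT1 libraries. Each had p = 0.1 in the two-sided exact permutation test, the smallest p that 3 libraries against 3 allow, and an adjusted p of 0.2 over the 6 shares, so none could pass a threshold of 0.05. The shares of PPP2R1B in the scaffold genes (difference -0.83 percentage points, exact permutation p = 0.2), of TIPRL in TIPRL and IGBP1 (-1.46, p = 0.3) and of PPP6C (0.09, p = 0.9) overlapped between groups. The difference in the TIPRL share was -0.73 without si-N6AMT1 replicate 2 and -2.43 without si-N6AMT1 replicate 3. That in the PPP6C share ran from -0.13 without si-CN replicate 3 to 0.24 without si-CN replicate 1. The 2 scaffold genes together had 71.3 ± 1.99 TPM in si-N6AMT1 and 75.6 ± 0.312 TPM in si-CN libraries (n = 3), with no overlap (exact permutation p = 0.1).

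**Figure D4:**
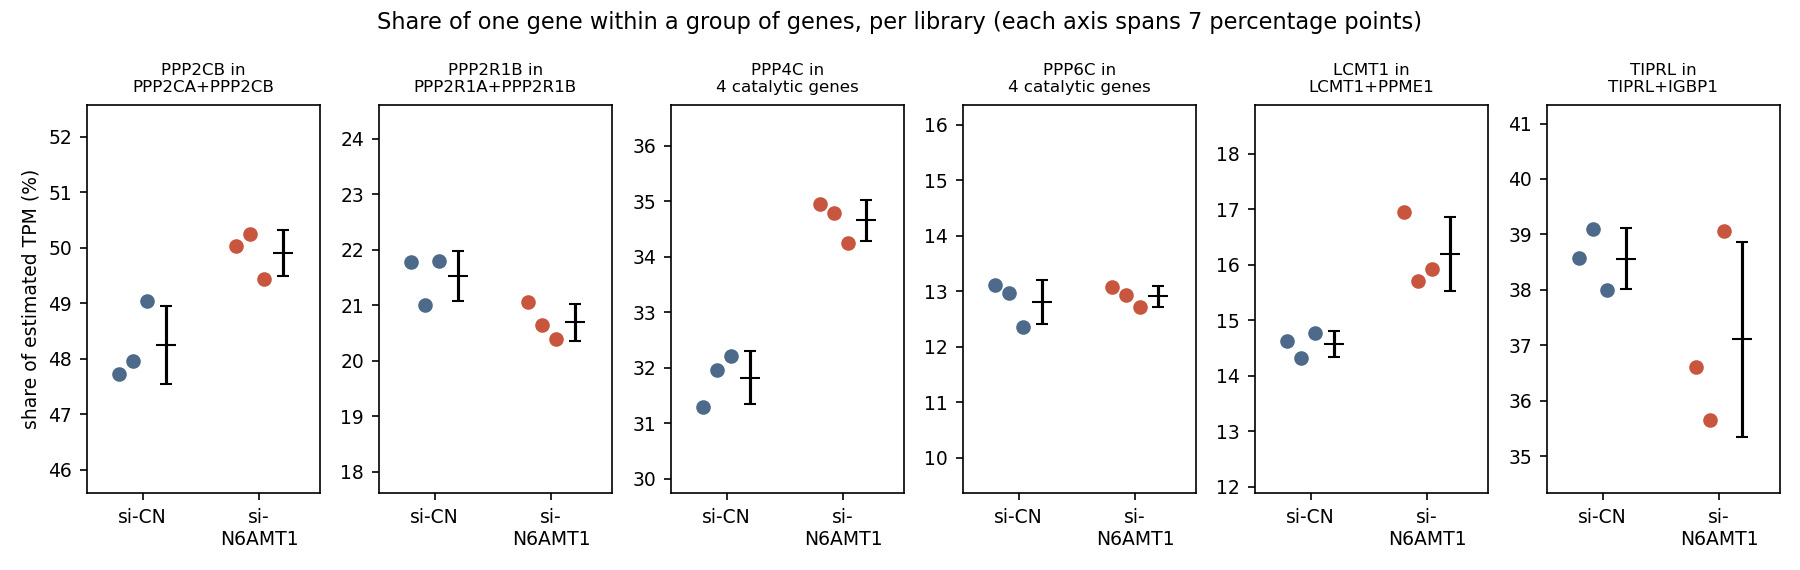
Share of the first named gene in the estimated TPM of the named genes, in percent on the y axis, with 1 point per library (blue, si-CN; red, si-N6AMT1) and the mean with its SD (n = 3) in black. Each axis spans 7 percentage points. The si-N6AMT1 points are all above the si-CN points for PPP4C, PPP2CB and LCMT1, and the groups overlap in the other 3 shares.

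The other genes of the pathway were read from 5 lists of 56 genes, of which 54 passed the filter, 12 were called lower and 3 higher. Among all genes tested, 11.5% were called lower and 9.78% higher. Of 15 PP2A regulatory B subunits only STRN, a striatin that links PP2A to the STRIPAK complex, was called. It was lower, with 73.1 ± 0.758 CPM in si-N6AMT1 and 81.7 ± 0.489 CPM in si-CN libraries (SD, n = 3, log2 fold change -0.16, FDR = 0.000485), and the list had a median of -0.04. The count of B subunits called lower was 3 with the GC content correction and 2 without si-N6AMT1 replicate 2, si-N6AMT1 replicate 3 or si-CN replicate 2. Of 11 regulatory subunits of PP4 and PP6, PPP4R1, a PP4 subunit, was called. Its level was 144.7 ± 1.64 CPM in si-N6AMT1 and 173.7 ± 0.986 CPM in si-CN, with a log2 fold change of -0.26 (FDR = 3.58e-08), opposite in sign to PPP4C, and the list had a median of 0.02.

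Among the PP2A methylesterase and inhibitors, 4 of 10 genes were lower and 0 higher, beside 11.5% and 9.78% of all genes, with a median of -0.05. ARPP19, which inhibits PP2A in mitosis once Greatwall kinase has phosphorylated it, had 110.1, 104.9 and 112.1 CPM in si-N6AMT1 and 161.2, 158.9 and 152.6 CPM in si-CN libraries. Its groups were far apart, and its log2 fold change of -0.53 (SE 0.0297, FDR = 1.09e-11) was the largest in size in these lists. CIP2A, an inhibitor found in many tumours, had a log2 fold change of -0.16 (FDR = 0.0145), and ANP32A, an inhibitor that also acts on chromatin, one of -0.09 (FDR = 0.0182). The genes called lower thus included a catalytic and a scaffold gene of PP2A as well as genes whose products inhibit it. The 4 calls among inhibitors became 1 with the GC content correction or without si-CN replicate 3, and 2 under DESeq2 or without si-N6AMT1 replicate 1, si-N6AMT1 replicate 3 or si-CN replicate 1.

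Of the 11 STRIPAK partners, 3 were lower and 2 higher, beside 11.5% and 9.78% of all genes, with a median of -0.06. STK26, a kinase of this complex, had 50.9 ± 2.59 CPM in si-N6AMT1 and 63.4 ± 1.69 CPM in si-CN libraries (log2 fold change -0.32, FDR = 2.85e-06). PDCD10, the adaptor that holds such kinases, was higher with 131.0 ± 2.88 against 119.4 ± 1.76 CPM (log2 fold change 0.13, FDR = 0.000806). Of 9 other catalytic subunits of the PPP family 7 were tested, 3 were lower and 1 higher, beside the same shares, with a median of -0.04. The calcineurin genes PPP3CB and PPP3CA had log2 fold changes of -0.26 (FDR = 0.000732) and -0.09 (FDR = 0.0292), and PPP1CC, a PP1 catalytic gene, one of 0.07 (FDR = 0.0221). The count of STRIPAK genes called lower became 1 under DESeq2 and without si-N6AMT1 replicate 3 or si-CN replicate 3, and that of genes called higher became 1 under DESeq2 and without si-N6AMT1 replicate 3 or si-CN replicate 1. The 3 other catalytic genes called lower became 1 under DESeq2, with the GC content correction and without si-N6AMT1 replicate 2 or si-CN replicate 3, and the 1 called higher became 0 under DESeq2, without the expression filter, with the replicate block and when any one si-CN library was left out. The count of list genes called, 15 in edgeR, was 7 under DESeq2, and with 1 library left out it was lowest without si-CN replicate 3, at 7, and 9 without si-CN replicate 1.

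Across the lists, 7 of the 12 genes called lower held TTCACAT or TCACATA in the 3′ UTR (58.3%), as did 0 of the 3 called higher. Of the genes not called, 38 had a 3′ UTR sequence in the reference transcript, and 14 of these held a site (36.8%). Among UTRs of similar length, the share with a site averaged 35.9% over the 12 lower genes, 26.1% over the 38 genes not called and 12.5% over the 3 higher genes. The sequences were picked on these fold changes.

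**Figure D5:**
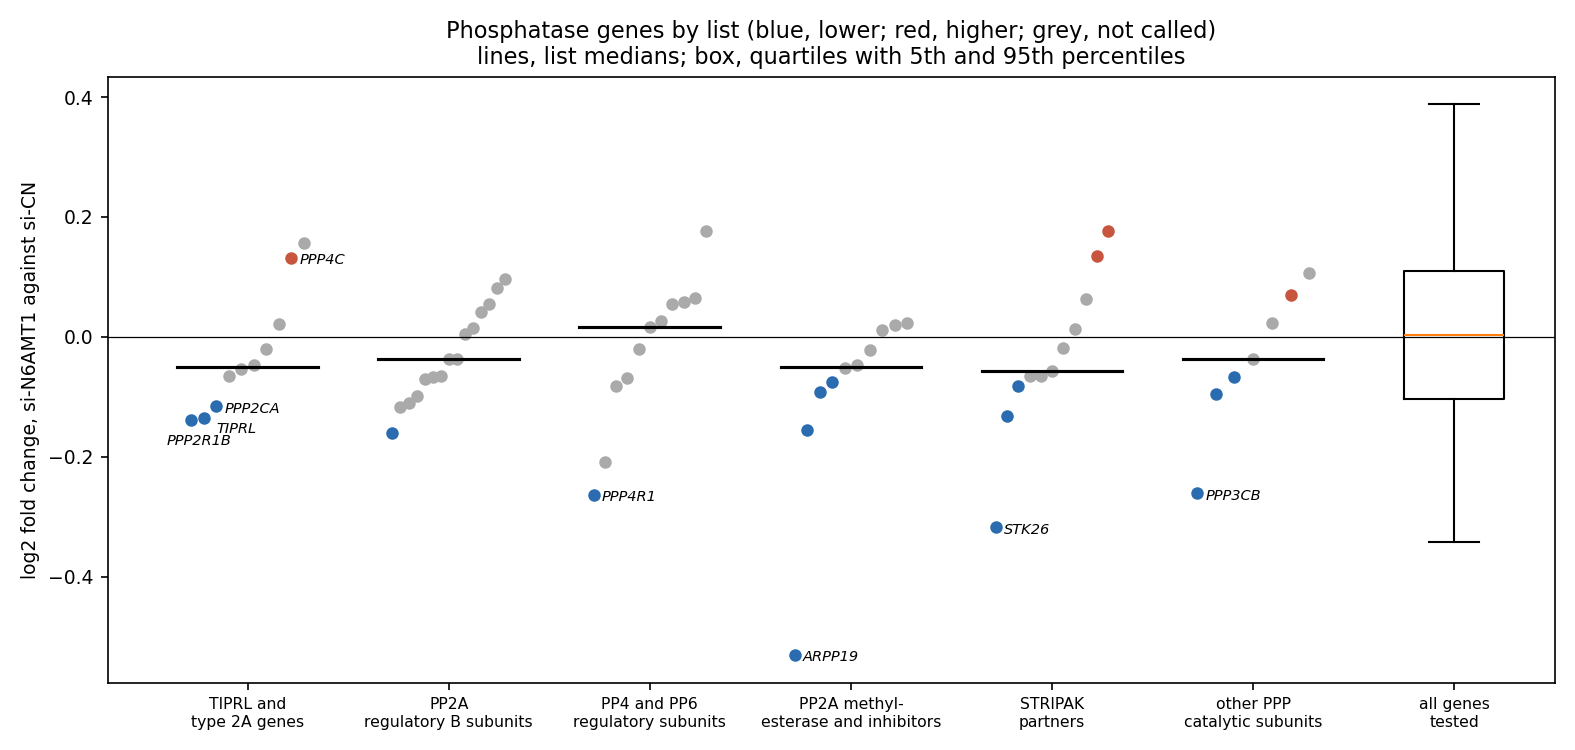
Log2 fold change (y axis) of the 10 genes and of the tested genes of 5 pathway lists, with 1 point per gene (blue, lower; red, higher; grey, not called) and a line at each median. The box gives the quartiles over all 17320 genes tested, with whiskers at the 5th and 95th percentiles. ARPP19 at -0.53 lies below the lower whisker, while TIPRL, PPP2CA, PPP2R1B and PPP4C lie within the whiskers.

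The genes whose pattern over the 6 libraries was nearest to that of TIPRL were CWC22, LNPK, KIF4A, CISD2 and CENPN. The measure was the root mean square difference of log2 CPM after each gene was centred on its mean, which was 0.0111 for CWC22, 0.0158 for LNPK, 0.0179 for KIF4A, 0.0186 for CISD2 and 0.0221 for CENPN. PPP2CA was the nearest of the other 9 phosphatase genes, at 0.0289 and place 29 among the genes tested. PPP2R1A was at 0.0467 and place 459, PPP2R1B at 0.0527 and place 764, and PTPA at 0.0563 and place 1029. PPP4C at 0.146 and LCMT1 at 0.165 were the farthest.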

How the data were processed

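Groups and replicate numbers come from the labels of the samples. Per the labels and the paper's methods, stranded mRNA libraries were trimmed with Trim Galore, quantified per transcript with kallisto v0.46.0 on hg19 and summed per gene. The values the authors deposited are estimated counts (expected counts) in whole numbers for 62438 genes, without normalization. The strand option of kallisto is not given in the sources used here, and counts of overlapping or near-identical genes are uncertain. All 6 columns were matched to a sample by name.

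Symbols, lengths and 3′ UTRs came from GENCODE on GRCh37, which matched 62149 identifiers. In R v4.3.3, edgeR v4.0.16 was run with a minimum count of 10, TMM scaling and a quasi-likelihood test. All 6 libraries entered without covariates, and p-values were adjusted over 17320 genes. The biological coefficient of variation was 1.85%. Standard errors were obtained from the log2 fold change and its F statistic. The procedure was tested on simulated counts, with fold changes larger than those of the 10 genes, so that test does not bear on calls of their size. Shares were compared by two-sided exact permutation tests. Library totals of 19739247 to 21289740 counts set the counting precision. Among the 10 genes and N6AMT1, it is thus LCMT1 and N6AMT1 that carry the widest errors.

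The genes, lists, markers and tests were chosen with earlier results of these data known. Named genes are N6AMT1, the 10 genes, PPME1, up to 3 called genes with the smallest p in each list, and the 5 nearest to TIPRL. A marker gene and a list gene are not reported here, though counts over their lists include them. Alternatives were DESeq2 v1.42.0, RLE size factors, testing without the filter, library sizes without mitochondrial genes, a replicate block (also together with a GC content correction), omission of single libraries, and for shares other gene lengths. The GC content correction alone (loess with a span of 0.3) and the median transcript length were added after the data had been seen.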

Additional observations from a re-analysis of the deposited data

How the results depend on the processing

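Over 13 alternatives, 116 of 130 log2 fold changes of the 10 genes kept their sign and their side of the threshold, 10 lost a call, 3 gained one and 1 changed sign. The change of sign was that of PPP2CB without si-CN replicate 3, where its log2 fold change was 0.0058. With 1 library left out the values of PPP2CB ran from -0.042 to 0.0058. The 3 genes called lower became 1 with the replicate block and GC content correction together, where TIPRL had an FDR of 0.106, PPP2R1B 0.0925 and PPP4C 0.0544, and the 1 gene called higher became 0 there and under DESeq2. GC content correction alone left 1 of TIPRL, PPP2CA and PPP2R1B called and added PPP2R1A and PTPA. The replicate block alone left 3 genes lower and 1 higher, 11 list genes and 3326 genes in all. Libraries with the same replicate number showed no shared deviation, since deviations from the group means correlated at -0.109, -0.0715 and -0.0078. These values cannot show whether such libraries were handled together. The 15 list genes called became 7 under DESeq2 and ran from 7 to 13 with 1 library left out. The 3687 genes called in all became 1932 under DESeq2 (1136 lower and 796 higher, compared with 1993 and 1694). The difference in the PPP4C share was 1.90 percentage points on counts without length and 2.01 with the median transcript length, that of PPP6C was 0.67 on counts, and that of LCMT1 was 2.55 with the median length. The cause of these shifts was not tested. With 3 libraries per group an exact permutation test cannot go below p = 0.1, and at the depth of LCMT1 a change of 11.5% had an interval of 0.01 to 0.31 on the log2 scale.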

Other observations

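Primers that the study lists for TIPRL were matched to GRCh37. The RT-qPCR primers ggcgtccaagacccacatc (chr1:168148378-168148396, exon 1) and acaggccactttaagcattcc (chr1:168153276-168153296, exon 2, minus strand) each had 1 exact match in the genome and span 199 bases of the spliced TIPRL transcript. The 6mA-IP-qPCR primers listed for TIPRL, ggtgcagtatttctggggct (chr4:169105102-169105121) and cacgaccttgactctgaccc (chr4:169105437-169105456, minus strand), also had 1 exact match each. These lie 355 bases apart from end to end within ANXA10 on chromosome 4, and 0 exact matches were found on chromosome 1, where TIPRL lies. No 6mA data were analysed here.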
